A study of Mus musculus with 6 samples.

Results

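The genes of squamous and cornified epithelium were followed in RNA from the whole colon of mice that lack the receptor TNFR1 and of wild-type mice. The list holds 36 genes of the basal, suprabasal and cornified layers, drawn up as a sign of anorectal tissue in the samples, and all 36 were found among the 30330 genes of the table. The knockout group, labelled R1ko, held 3 mice of genotype Tnfrsf1a-/-, and the wild-type group, labelled WT, held 3 mice. All were males of 12 weeks, and every sample is labelled with the strain C57Bl/6J. Each mouse gave 1 library of polyadenylated RNA, and values are in TPM, a transcript abundance corrected for length and scaled so that all libraries have 1 common total. In sentences that give 3 values for a group, these are replicates 1, 2 and 3 in that order.

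Squamous epithelium is a layered tissue. Its basal cells divide under the control of the transcription factor p63, and their daughters move outward, become tied together by desmosomes and finally turn into flat cells whose proteins are cross-linked into a cornified envelope. The colon is lined by a single layer of columnar cells and makes no such envelope, but it meets the squamous lining of the anal canal at the anorectal junction, where skin with hair follicles also begins.

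Squamous genes were detected in all 6 libraries, and their levels were lowest in wild-type replicate 2 for 34 of the 36 genes (67.9% of all genes tested were lowest there). In that library the median gene of the list stood at 29.6% of its mean in the other 5 libraries, against 74.2% for the median of all 14248 genes tested. The values of the 2 groups overlapped for every member except Cnfn. Of the 36 genes, 35 could be tested between the genotypes, and none passed the threshold (limma, Benjamini-Hochberg adjusted p below 0.05). Without wild-type replicate 2 the median log2 fold change of the list was −0.01, against 0.48 with all 6 libraries. In whole tissue, fewer squamous cells and less RNA per squamous cell cannot be told apart.

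**Figure D1:**
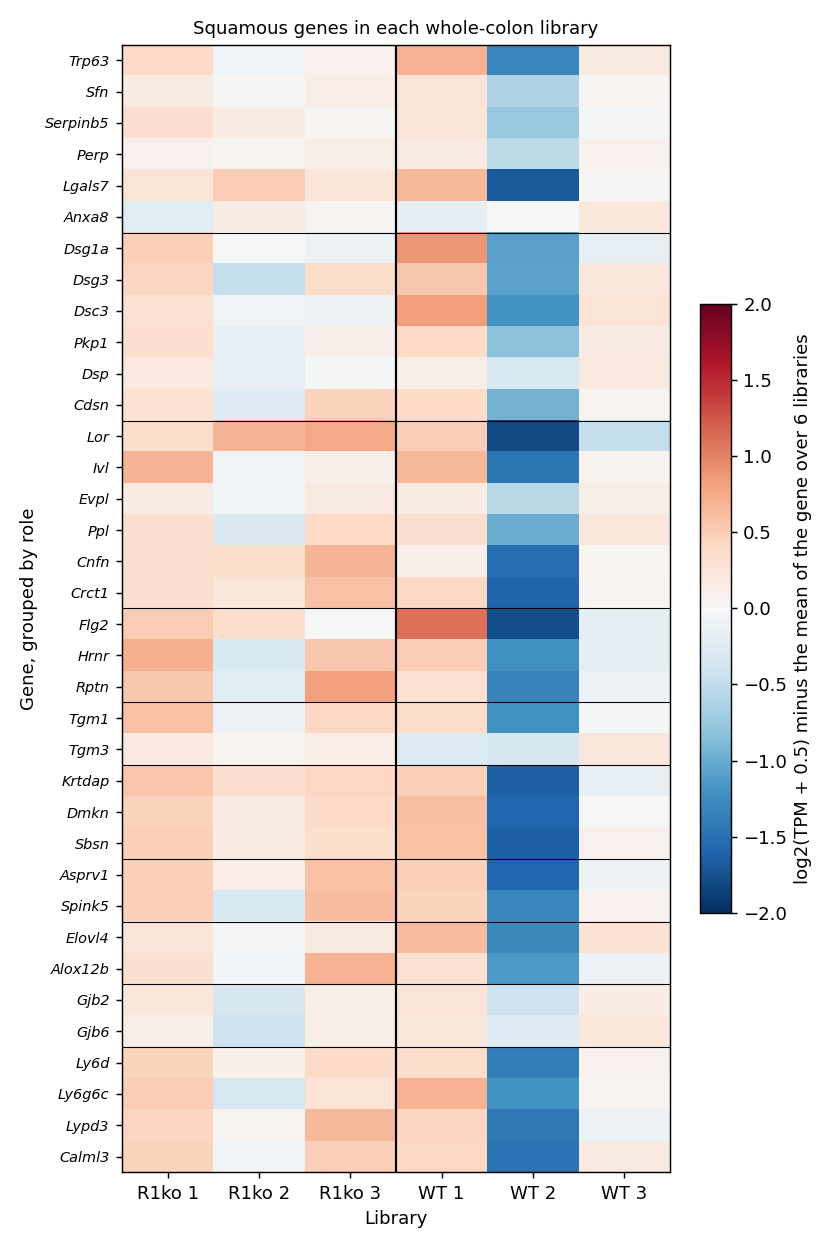
Level of each of the 36 squamous genes (rows, grouped by role) in each library (columns), as log2(TPM + 0.5) minus the mean of the gene over the 6 libraries. The column of wild-type replicate 2 is the lowest for 34 of 36 genes, and Anxa8 and Gjb6 are the exceptions.

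The list is spread over 15 chromosomes, and some members are neighbours. On chromosome 3, the epidermal differentiation complex holds 6 members (Lor, Ivl, Crct1, Flg2, Hrnr and Rptn) between 92080271 and 93399442 (mm10, GENCODE M21). On chromosome 7, Sbsn, Dmkn and Krtdap lie side by side within 39.6 kb, from 30751471 to 30791097. Gjb2 and Gjb6 are neighbours as well, and so are the desmosomal cadherin genes. Members of the groups on chromosomes 3 and 7 were among the lowest in wild-type replicate 2 relative to the other libraries, so the stretch just before the transcription start is shown for some of them. The sequences are the 120 bases before the RefSeq start (GRCm38.p6), 5′ to 3′ on the strand of the gene. Capitals mark the AP-1 motif TGANTCA and the TATA box motif TATAAA, found on either strand.
Lor: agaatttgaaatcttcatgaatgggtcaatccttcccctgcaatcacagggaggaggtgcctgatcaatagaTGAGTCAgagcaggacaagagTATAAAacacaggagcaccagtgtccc
Ivl: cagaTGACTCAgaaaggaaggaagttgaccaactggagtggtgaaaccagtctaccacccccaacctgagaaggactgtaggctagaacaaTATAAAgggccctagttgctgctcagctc
Rptn: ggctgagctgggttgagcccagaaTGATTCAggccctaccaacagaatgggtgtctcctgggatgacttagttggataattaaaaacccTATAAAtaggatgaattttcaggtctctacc
Krtdap: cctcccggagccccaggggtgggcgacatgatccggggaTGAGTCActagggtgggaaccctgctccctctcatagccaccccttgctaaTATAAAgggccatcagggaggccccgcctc
Cnfn: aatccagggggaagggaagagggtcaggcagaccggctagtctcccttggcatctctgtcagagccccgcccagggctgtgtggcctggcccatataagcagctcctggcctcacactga
Tgm3: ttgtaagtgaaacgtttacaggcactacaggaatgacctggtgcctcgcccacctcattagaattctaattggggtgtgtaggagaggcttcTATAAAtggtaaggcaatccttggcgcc
These lie at chr3:92083143-92083262 (minus strand), chr3:92573736-92573855 (minus strand), chr3:93393579-93393698 (plus strand), chr7:30787785-30787904 (plus strand), chr7:25369725-25369844 (minus strand) and chr2:130012220-130012339 (plus strand). Lor, Ivl, Rptn and Krtdap carry both motifs in this stretch. Not all members of the groups on chromosomes 3 and 7 do. Over the 250 bases before the start, Flg2, Dmkn and Sbsn had the AP-1 motif without TATAAA. Hrnr had TATAAA without the AP-1 motif. Cnfn, an envelope gene at 27.6% of the other libraries in wild-type replicate 2, carries neither in this exact spelling, and Tgm3, at 74.8%, carries the TATA motif alone. RefSeq promoters were searched for 24 of the 36 members. The desmosomal cadherin genes and Spink5 were among the members left out of the search. The set of all promoters may still hold genes of the kind left out, so the shares compare unlike sets. Over the 250 bases before the start, the AP-1 motif was found in 10 of the 28 promoters of the 24 members, or 35.7%. These belong to 8 genes (Serpinb5, Lor, Ivl, Flg2, Rptn, Krtdap, Dmkn and Sbsn). The motif was found in 6.75% of all 32851 promoters. TATAAA was found in 25% of the members' promoters and in 12.4% of all. The p53-family half-site, the kind of sequence that p63 binds, was found in 17.9% of the members' promoters and in 7.13% of all. The motifs do not overlap each other in the sequences shown. A match is a description of the letters, and binding was not measured. A link between the motifs and the level in wild-type replicate 2 was not tested.

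Tnfrsf1a, the targeted gene, summed to 49.2, 36.5 and 46.9 TPM in the R1ko libraries, against 71.2, 44.1 and 63.0 TPM in the wild-type libraries. Its full-length transcript ENSMUST00000032491 measured 23.5, 20.4 and 25.6 TPM in R1ko, against 67.6, 39.9 and 59.1 TPM in wild type, without overlap. Each library had between 13661 and 14588 genes at 1 TPM or more, and the depth behind the TPM is unknown. On the first principal component, with 49.7% of the variance, wild-type replicate 2 lay farthest from the rest. In this library 27.4% of all TPM fell on transcripts without a gene, against 1.86 to 7.23% in the other 5, and since TPM has a fixed total, the rest of its genes share less. After median-of-ratios scaling, wild-type replicate 2 was lowest for 31 of the 35 tested squamous genes, against 19.2% of all genes, and the median squamous gene stood at 39.9% of its mean in the other libraries.

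The knockout was compared with wild type to ask whether the squamous component differs between the genotypes. Tests were made on log2(TPM + 0.5) in genes averaging 1 TPM or more across all libraries, and a fold change on this scale understates that of low genes. None of the 35 tested members was called higher or lower, where 0.0912% of all genes tested were called higher in R1ko and 0.175% lower (0.267% in all). None was called after median-of-ratios scaling (0.0421% of all genes were) or without wild-type replicate 2 (0.14%). By the unadjusted p, 10 of 35 fell below 0.05, against 3.69% of all genes. After median-of-ratios scaling it was 3 of 35, against 11.3%, and without wild-type replicate 2 it was 1 of 35, against 7.92%. The log2 fold changes were positive for 34 of 35 with all libraries (55.7% of all genes), for 32 after scaling (49.4%), and for 15 without wild-type replicate 2 (20.5%). The median of the list was 0.48 with all libraries, where the median of all genes was 0.02. Without wild-type replicate 2 these medians were −0.01 and −0.13. The calls depended on the libraries and on the filter. With genes averaging 5 TPM or more, 27 members were tested and 5 were called higher (Lor, Cnfn, Krtdap, Asprv1 and Crct1), against 0.71% of all genes. Without wild-type replicate 1, the wild-type library with the highest sum over the list, 13 members were called higher, against 1.37% of all genes. Without wild-type replicate 3 it was 3 (0.402%), without R1ko replicate 1 it was 2 (0.527%), without R1ko replicate 2 it was 5 (0.6%), and without R1ko replicate 3 it was 1, Lor (0.485%). Single members had log2 fold changes from −0.02 (Anxa8) to 1.196 (Lor), with SE between 0.20 and 0.40.

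**Figure D2:**
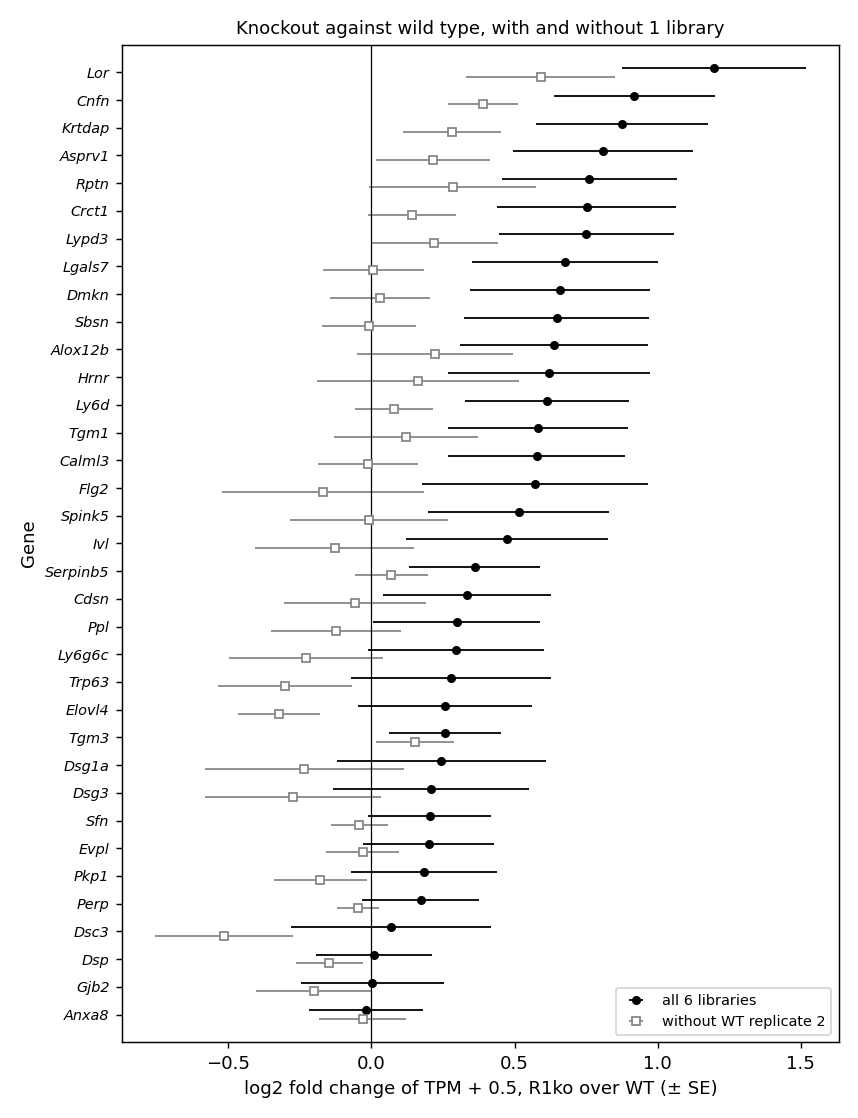
Log2 fold change of TPM + 0.5, R1ko over WT (x axis), with its SE, for the 35 tested squamous genes (y axis). Filled circles use all 6 libraries and open squares leave out wild-type replicate 2. The open squares lie to the left of the circles for every gene, and 20 of the 35 are below 0.

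Summed over the 36 members, the list measured 2608, 2392 and 2579 TPM in the R1ko libraries, against 2546, 1223 and 2265 TPM in the wild-type libraries. Wild-type replicate 1 lies between R1ko replicates 2 and 3, so the groups overlap, and wild-type replicate 2 lies far below the other 5. The means were 2526 ± 117 TPM in R1ko and 2011 ± 697 TPM in wild type (SD, n = 3 each). The sum is led by a few genes: Tgm3 held 20.5% of it, Krtdap 12.7% and Perp 10.8%. Apart from wild-type replicate 2, the highest library of a member exceeded its lowest by a median of 1.63-fold, from 1.09-fold for Perp to 2.58-fold for Flg2. Among the 6 libraries, the highest value was in wild-type replicate 1 for 15 members, in R1ko replicate 3 for 12, in R1ko replicate 1 for 7 and in wild-type replicate 3 for 2. R1ko replicate 2 was the lowest R1ko library for 28 members, and wild-type replicate 1 exceeded replicate 3 for 33.

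Regulators and basal-layer genes act first in the order of differentiation. Trp63 (ENSMUSG00000022510; chromosome 16, 25683763 to 25892102), the p63 gene and master regulator of basal cells, had 3.42, 2.42 and 2.71 TPM in the R1ko libraries, against 4.397, 0.726 and 2.93 TPM in the wild-type libraries. Wild-type replicate 2 was far below the rest, and wild-type replicate 1 was the highest. Its log2 fold change was 0.28 ± 0.35 (SE, limma adjusted p = 0.9999), and −0.30 without wild-type replicate 2. Of its 8 transcripts with values, the 4 that start at the downstream promoter (position 25801916) held 98.5% of the TPM, and those starting upstream 1.51%. The downstream transcripts encode the forms without the N-terminal activation domain, which are the known main forms of basal squamous cells. They summed to 3.35, 2.32 and 2.71 TPM in R1ko, against 4.32, 0.73 and 2.93 TPM in wild type.

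Lgals7, which encodes a galectin of stratified epithelia, had 200.3, 236 and 196 TPM in the R1ko libraries, against 259, 51.4 and 169 TPM in the wild-type libraries. Like Trp63 it was highest in wild-type replicate 1 and lowest in wild-type replicate 2, at 24.3% of the mean of the other 5 libraries (Trp63 at 22.9%). R1ko replicate 2, however, was the highest R1ko library for Lgals7 and the lowest for Trp63. Serpinb5, the epithelial serpin maspin, had 70.95, 62.4 and 57.9 TPM in the R1ko libraries, against 66.5, 32.8 and 55.1 TPM in the wild-type libraries. Sfn, an epithelial adaptor protein that restrains the cell cycle, had 125, 114 and 123 TPM in the R1ko libraries, against 134, 74.2 and 115 TPM in the wild-type libraries. Both were also lowest in wild-type replicate 2, but at 52.4% and 60.7% of the other libraries, nearer to the 74.2% of the median gene. Perp, a membrane protein of desmosomes and a known target of p63, had 257, 251 and 261 TPM in the R1ko libraries, against 275, 168 and 256 TPM in the wild-type libraries, with wild-type replicate 2 at 64.6%. Anxa8, a calcium-dependent membrane-binding annexin, had 124, 164 and 153 TPM in the R1ko libraries, against 130.4, 146 and 171 TPM in the wild-type libraries. It was the only member with a negative log2 fold change, −0.02 ± 0.20, and its level in wild-type replicate 2 lay within the range of the others, at 98.1% of their mean.

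The desmosome genes encode the cadherins and plaque proteins that hold squamous cells together. Dsg3, a desmosomal cadherin of the lower layers, had 3.54, 1.63 and 3.33 TPM in the R1ko libraries, against 3.82, 0.922 and 2.99 TPM in the wild-type libraries. Dsc3, its partner cadherin, had 3.67, 2.68 and 2.62 TPM in the R1ko libraries, against 5.503, 0.966 and 3.56 TPM in the wild-type libraries. Dsg1a, a cadherin of the upper layers, had 2.25, 1.48 and 1.31 TPM in the R1ko libraries, against 3.14, 0.432 and 1.25 TPM in the wild-type libraries, but it has the near copies Dsg1b and Dsg1c, so reads can be shared and its level is uncertain. In all 3 the highest library was wild-type replicate 1 and the lowest wild-type replicate 2, at 30.1%, 26.8% and 22.9% of the other libraries. Pkp1, a plakophilin of the squamous desmosomal plaque, had 30.4, 21.4 and 25.8 TPM in the R1ko libraries, against 31.5, 13.4 and 26.9 TPM in the wild-type libraries. Cdsn, which encodes corneodesmosin, the glue of cornified cells, had 6.39, 4.16 and 7.23 TPM in the R1ko libraries, against 6.87, 2.396 and 5.29 TPM in the wild-type libraries. Pkp1 was highest in wild-type replicate 1 and Cdsn in R1ko replicate 3, and both were lowest in wild-type replicate 2, at 49.3% and 40.03% of the other libraries. Dsp, the desmoplakin that ties desmosomes to keratin in simple as well as squamous epithelium, had 120.5, 93.8 and 103 TPM in the R1ko libraries, against 114, 84.2 and 119.9 TPM in the wild-type libraries. It was higher than the others and nearly level, with wild-type replicate 2 at 76.4% and a log2 fold change of 0.01 ± 0.20 (SE) that turned to −0.02 after median-of-ratios scaling. The 6 desmosome members had log2 fold changes between 0.01 and 0.33, and each was below 0 without wild-type replicate 2 (median −0.21).

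The proteins of the cornified envelope are laid down last. Lor (ENSMUSG00000043165; chromosome 3, 92080271 to 92083142), loricrin, the major envelope protein of epidermis, had 70.3, 87.8 and 93.4 TPM in the R1ko libraries, against 76.9, 15.3 and 39.3 TPM in the wild-type libraries. R1ko replicates 2 and 3 were the highest, but wild-type replicate 1 exceeded R1ko replicate 1, so the groups overlap. The means were 83.8 ± 12.04 TPM in R1ko and 43.9 ± 31.1 TPM in wild type (SD, n = 3 each). The log2 fold change was 1.196 ± 0.32 (SE, limma adjusted p = 0.161). It was the largest of the list and was 0.59 without wild-type replicate 2 (adjusted p = 0.622). Lor passed the threshold when any 1 of the other 5 libraries was left out. It also passed with a filter at 5 TPM (limma adjusted p = 6.12e-06), at the same log2 fold change of 1.196, so that call rests on the filter. Lor did not pass after median-of-ratios scaling (limma adjusted p = 0.393), and its exact permutation p was 0.2.

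Cnfn, cornifelin, a small envelope protein, had 95.7, 96.6 and 121 TPM in the R1ko libraries, against 80.6, 25.99 and 77.7 TPM in the wild-type libraries. It was the only member whose groups did not overlap (3.17% of all genes tested were higher in R1ko without overlap and 1.82% lower; exact permutation p = 0.1, two-sided, the smallest that 3 against 3 allows). Its log2 fold change was 0.92 ± 0.28 (SE, limma adjusted p = 0.301), and 0.39 without wild-type replicate 2 (adjusted p = 0.616). Ivl, involucrin, an early scaffold of the envelope, had 6.49, 3.63 and 4.25 TPM in the R1ko libraries, against 6.401, 1.11 and 4.097 TPM in the wild-type libraries. Crct1, a cysteine-rich protein of the epidermal differentiation complex, had 36.97, 34.3 and 44.1 TPM in the R1ko libraries, against 39.2, 9.37 and 30.6 TPM in the wild-type libraries. Both were lowest in wild-type replicate 2, at 22.3% and 25.3% of the other libraries, and overlapped between the groups.

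The plakins Evpl (envoplakin) and Ppl (periplakin) anchor the envelope to keratin and desmosomes and are made in simple epithelium of the gut as well. Evpl had 20.3, 17.4 and 20.5 TPM in the R1ko libraries, against 20.1, 12.04 and 19.5 TPM in the wild-type libraries. Ppl had 8.62, 5.43 and 9.002 TPM in the R1ko libraries, against 8.55, 3.13 and 7.92 TPM in the wild-type libraries. In wild-type replicate 2, Evpl stood at 61.6% of the other libraries and Ppl at 39.6%.

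**Figure D3:**
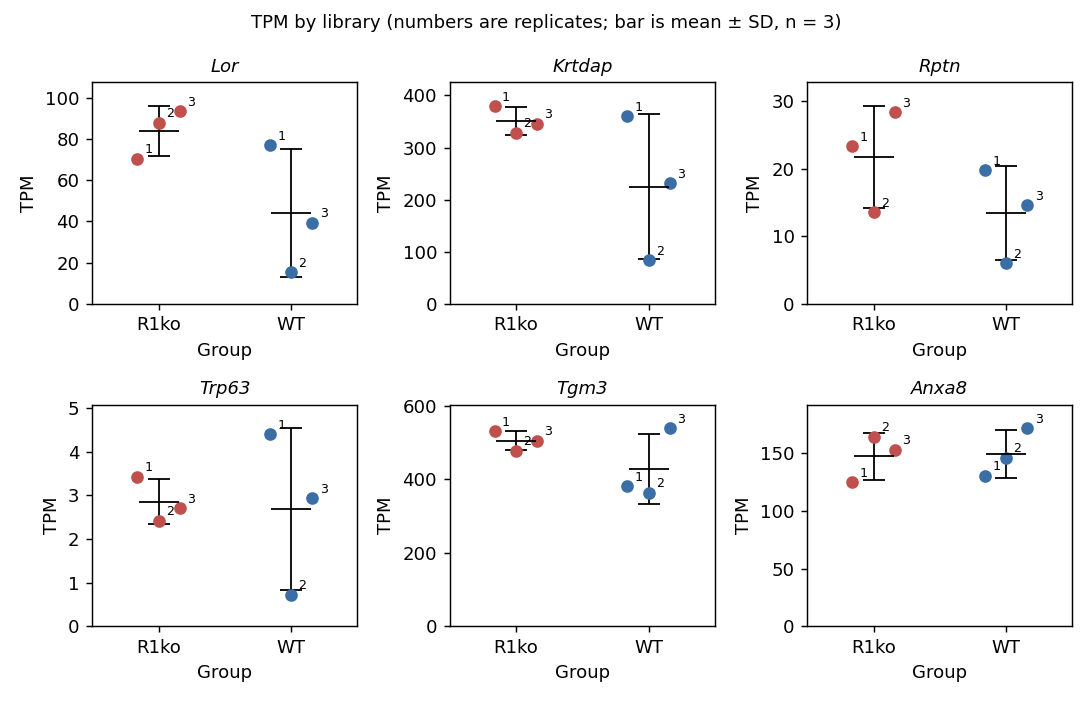
TPM of 6 squamous genes in each library (points, with the replicate number), with the mean and SD of the 3 libraries of each group. Lor, Krtdap, Rptn and Trp63 have their lowest point in wild-type replicate 2, at 15.3, 83.4, 5.99 and 0.726 TPM, while Tgm3 and Anxa8 lie in a narrower range.

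The fused S100 proteins fill the cytoplasm of the outer cells. Rptn, repetin, had 23.3, 13.6 and 28.4 TPM in the R1ko libraries, against 19.8, 5.99 and 14.6 TPM in the wild-type libraries. Flg2, filaggrin-2, had 8.13, 7.25 and 5.59 TPM in the R1ko libraries, against 12.5, 1.29 and 4.84 TPM in the wild-type libraries. Hrnr, hornerin, had 3.62, 1.53 and 3.14 TPM in the R1ko libraries, against 3.04, 0.575 and 1.702 TPM in the wild-type libraries. Their order among the libraries differed: R1ko replicate 3 was highest for Rptn, wild-type replicate 1 for Flg2 and R1ko replicate 1 for Hrnr, and all were lowest in wild-type replicate 2. Flg2 had the lowest share of all 36 members there, at 16.8% of the other libraries. The genes are rich in repeats, so their separate levels are less certain.

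Transglutaminases cross-link the envelope. Tgm1, the membrane-bound enzyme of keratinocytes, had 6.14, 3.58 and 5.39 TPM in the R1ko libraries, against 5.24, 1.41 and 3.84 TPM in the wild-type libraries. Tgm3 (ENSMUSG00000027401; chromosome 2, 130012349 to 130050399), the transglutaminase of the later layers and of hair follicles, had 530.4, 478 and 505 TPM in the R1ko libraries, against 382, 364 and 538 TPM in the wild-type libraries. Tgm3 was by far the higher of the pair and did not share the pattern of Tgm1: wild-type replicate 2 stood at 74.8% of the other libraries for Tgm3, like the median gene, and at 29.2% for Tgm1. For Tgm3, wild-type replicate 1 was almost as low as replicate 2. Their log2 fold changes were 0.26 ± 0.20 for Tgm3 and 0.58 ± 0.32 for Tgm1 (SE), and neither passed.

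The neighbours Krtdap, Dmkn and Sbsn encode secreted proteins of suprabasal keratinocytes. Krtdap (ENSMUSG00000074199; chromosome 7, 30787896 to 30791097) had 379.7, 328 and 346 TPM in the R1ko libraries, against 360.3, 83.4 and 231 TPM in the wild-type libraries. Dmkn, dermokine, had 125, 100.4 and 119 TPM in the R1ko libraries, against 138, 29.9 and 91.3 TPM in the wild-type libraries. Sbsn, suprabasin, had 79.7, 63.7 and 73.4 TPM in the R1ko libraries, against 86.4, 18.1 and 60.6 TPM in the wild-type libraries. Krtdap was the highest and Sbsn the lowest of the trio in every library, with wild-type replicate 2 at 25.3%, 26.1% and 24.9% of the others. Krtdap had the largest log2 fold change of the trio, 0.88 ± 0.30 (SE, limma adjusted p = 0.549), and 0.28 without wild-type replicate 2.

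Among the enzymes and inhibitors of the barrier, Asprv1, the protease that processes filaggrin, had 33.7, 26.4 and 36.3 TPM in the R1ko libraries, against 33.4, 7.62 and 22.4 TPM in the wild-type libraries. Spink5, an inhibitor of the kallikreins that shed cornified cells, had 14.4, 8.16 and 15.9 TPM in the R1ko libraries, against 14.2, 3.85 and 10.9 TPM in the wild-type libraries. Elovl4, which elongates the fatty acids of barrier ceramides, had 30.96, 25.4 and 29.4 TPM in the R1ko libraries, against 40.04, 10.3 and 32 TPM in the wild-type libraries. Alox12b, the lipoxygenase that oxidises these ceramides, had 2.64, 1.897 and 3.54 TPM in the R1ko libraries, against 2.59, 0.63 and 1.81 TPM in the wild-type libraries. Wild-type replicate 2 was at 25.02%, 30.3%, 32.7% and 25.2% of the other libraries for these genes. Elovl4 was highest in wild-type replicate 1, and the other 3 in R1ko replicate 3.

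The gap junction genes encode connexins, which form channels between keratinocytes, and were low. Gjb2 had 8.25, 5.396 and 7.61 TPM in the R1ko libraries, against 8.46, 5.13 and 7.76 TPM in the wild-type libraries, and Gjb6 stayed between 0.44 and 0.96 TPM and was not tested. Their levels in wild-type replicate 2 were 68.4% and 67.98% of the other libraries, near the median gene, and summed Gjb6 was lowest in R1ko replicate 2. The main transcript Gjb6-201 had 0.817, 0.44 and 0.691 TPM in R1ko, against 0.957, 0.227 and 0.944 TPM in wild type. It was thus lowest in wild-type replicate 2. The non-coding Gjb6-203, at 0 in the other libraries, held 51.1% of the gene there, so the place of Gjb6 is uncertain.

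The last set holds surface proteins of the Ly6 family and a calmodulin relative of differentiating keratinocytes. Ly6d had 81.7, 64.5 and 78.1 TPM in the R1ko libraries, against 77.6, 22.8 and 63.97 TPM in the wild-type libraries. Ly6g6c had 30.9, 17.4 and 26.4 TPM in the R1ko libraries, against 35.7, 9.26 and 22.6 TPM in the wild-type libraries. Lypd3, which encodes a surface protein of suprabasal cells, had 18.5, 14.3 and 21.6 TPM in the R1ko libraries, against 18.6, 4.73 and 12.5 TPM in the wild-type libraries. In all of these wild-type replicate 2 was lowest, at 31.2%, 34.9% and 27.7% of the others. Calml3, the calmodulin-like protein, had 43.4, 30.8 and 44.5 TPM in the R1ko libraries, against 42.7, 11.2 and 36.3 TPM in the wild-type libraries, with wild-type replicate 2 at 28.3%. Lypd3 had the largest log2 fold change of this set, 0.75 ± 0.31 (SE, limma adjusted p = 0.947).

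The level in wild-type replicate 2 differed across the list. In 24 of 36 members this library stood below 35% of the mean of the other 5, in 4 between 35 and 60%, and in 8 at 60% or more. Below 50% were 27 members, against 5.4% of all genes tested. Of the 8 at 60% or more, Dsp, Evpl, Perp and Sfn belong to the 5 members listed as also made by simple gut epithelium, and Tgm3, Anxa8, Gjb2 and Gjb6 are the others. Ppl was the remaining one of those 5. Summed, the 5 genes measured 482 to 531 TPM in R1ko and 342 to 551 TPM in wild type, and the other 31 1910 to 2077 TPM in R1ko and 881 to 1995 TPM in wild type. Their median log2 fold changes were 0.20 and 0.57 with all libraries, and −0.05 and 0.00 without wild-type replicate 2. The mean of the R1ko libraries lay above both wild-type replicates 1 and 3 for 4 members (Lor, Cnfn, Rptn and Alox12b), between them for 22 and below both for 10.

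Of the 83 member transcripts with values, 57 were tested and none passed (limma, 0.0419% of 31056 transcripts tested did), and 5 had an unadjusted p below 0.05 (5.02% of all). Several members were carried by more than 1 transcript. Cnfn was split between Cnfn-201 (53.8% of its TPM) and Cnfn-202 (46.2%), Serpinb5 between Serpinb5-201 (51.9%) and Serpinb5-204 (47.1%), and Sbsn between Sbsn-203 (62.9%) and Sbsn-201 (33.3%). Krtdap-201 held 54.9% of Krtdap, Dmkn-201 68.6% of Dmkn and Tgm1-203 80.7% of Tgm1. Such shares rest on reads that transcripts have in common.

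The keratins are the classical markers of these layers and were used to check the label. All 13 squamous keratins on the list were detected, though Krt2 averaged only 0.591 TPM and had 0.0121 TPM in wild-type replicate 2. Of the 13 keratins, 12 were tested, and none passed. An unadjusted p below 0.05 was found for 4 (3.69% of all genes had one), and for 1 after median-of-ratios scaling (11.3%). The median log2 fold change of the keratins was 0.55. It was −0.08 without wild-type replicate 2, with 1 keratin at an unadjusted p below 0.05 (7.92% of all genes were). Krt5 and Krt14, the basal pair, were at 66.5 and 102 TPM on average over the 6 libraries. Krt10 had 329, 201 and 359 TPM in the R1ko libraries, against 326, 82.1 and 204 TPM in the wild-type libraries. Krt1, its partner in suprabasal epidermis, averaged 173 ± 48.5 TPM in R1ko and 133 ± 85.5 TPM in wild type, and Krt14 105 ± 8.89 TPM in R1ko and 98.2 ± 60.5 TPM in wild type (SD, n = 3 each). In wild-type replicate 2 the median keratin stood at 28.9% of the other libraries, close to the 29.6% of the squamous list. This library was lowest for 12 of the 13 keratins. The exception was Krt16, which stood at 76.7% there, was lowest in R1ko replicate 3 and had a log2 fold change of −0.19. Krt13 and Krt4, the pair of non-cornified squamous linings, were present beside Krt1 and Krt10 (Krt4, Krt5 and Krt13 were chosen after their values were seen). Krt13 had 120, 89.7 and 137 TPM in the R1ko libraries, against 99.9, 33.9 and 88.4 TPM in the wild-type libraries, and Krt4 80.1, 57.9 and 100.7 TPM in the R1ko libraries, against 75.5, 24.4 and 69.2 TPM in the wild-type libraries. Both kinds of squamous keratin were thus found in every library.

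Genes that share the pathway were read from lists that are not members. Of 8 other desmosome genes 7 were tested and none passed, with a median log2 fold change of 0.17, and −0.11 without wild-type replicate 2 (0 at an unadjusted p below 0.05). Dsg2, the cadherin of simple epithelium, averaged 166 ± 27.1 TPM in R1ko and 127 ± 25.4 TPM in wild type, Jup (plakoglobin) 157 ± 13.04 TPM in R1ko and 134 ± 20.1 TPM in wild type and Pkp3 67.6 ± 6.93 TPM in R1ko and 66.7 ± 13.3 TPM in wild type (SD, n = 3 each). These 3 are high in the colon, and wild-type replicate 2 was at 77.9%, 73.9% and 76.6% of the other libraries. Of 29 other genes of the envelope and the epidermal differentiation complex, 25 were tested and none passed, with a median of 0.55. An unadjusted p below 0.05 was found for 8 (3.69% of all genes had one), and for 4 after median-of-ratios scaling (11.3%). Without wild-type replicate 2 the median was 0.02, with 1 at an unadjusted p below 0.05 (7.92% of all genes were). Flg, filaggrin, had 196, 99.8 and 214 TPM in the R1ko libraries, against 181, 41.9 and 92.9 TPM in the wild-type libraries. Sprr1a averaged 114 ± 20.6 TPM in R1ko and 90.1 ± 44.6 TPM in wild type and Sprr4 21.1 ± 12.2 TPM in R1ko and 20.5 ± 11.8 TPM in wild type (SD, n = 3 each). The median gene of this list was at 29.4% in wild-type replicate 2, and Lelp1 was listed at 0 in every library.

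Of 16 other genes of barrier lipids and shedding, 12 were tested and none passed (1 at an unadjusted p below 0.05), with a median of 0.18, and −0.05 without wild-type replicate 2. Among them were St14 (matriptase) at 119.7 ± 8.904 TPM in R1ko and 109 ± 13.9 TPM in wild type and Blmh at 33.6 ± 5.5 TPM in R1ko and 31.1 ± 6.598 TPM in wild type. Of 10 other regulators of squamous differentiation 9 were tested and none passed (0 at an unadjusted p below 0.05), with a median of 0.03, and −0.16 without wild-type replicate 2. Klf4, which acts in colonic goblet cells as well as in the skin barrier, averaged 474 ± 19.99 TPM in R1ko and 377 ± 95.1 TPM in wild type and Ovol1 9.86 ± 5.49 TPM in R1ko and 8.88 ± 1.59 TPM in wild type. Of 7 hemidesmosome and basement membrane genes none passed (0 at an unadjusted p below 0.05), with a median of −0.02, and −0.15 without wild-type replicate 2. Itga6 averaged 114 ± 13.1 TPM in R1ko and 114 ± 25.8 TPM in wild type and Itgb4 50.5 ± 4.95 TPM in R1ko and 52.98 ± 9.16 TPM in wild type (SD, n = 3 each for all of these).

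Markers of the other tissues around the anorectal junction were set beside the squamous list. The 11 colon epithelium markers summed to 9982 to 10640 TPM in R1ko and 7673 to 10830 TPM in wild type, and their median in wild-type replicate 2 was 71.8% of the other libraries, near the 74.2% of all genes. None of them passed (1 at an unadjusted p below 0.05, median log2 fold change 0.19, and 0.03 without wild-type replicate 2). Krt8 averaged 3806 ± 161 TPM in R1ko and 3646 ± 632 TPM in wild type, Krt19 1953 ± 65.96 TPM in R1ko and 1796 ± 384 TPM in wild type and Car1 1194 ± 172 TPM in R1ko and 1030 ± 148 TPM in wild type (SD, n = 3 each). The markers of columnar epithelium were thus far above the squamous genes in summed TPM.

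Skeletal muscle forms the external anal sphincter, and its markers were lower still in wild-type replicate 2. Its 12 markers summed to 1429, 3838 and 1967 TPM in R1ko, against 3805, 225.4 and 807 TPM in wild type. Wild-type replicate 2 was lowest for all 12, and the highest library was R1ko replicate 2 for 7 and wild-type replicate 1 for 5. Of the 36 squamous genes, Lgals7 alone had those 2 libraries as its highest pair. None passed, with 12 of 12 at an unadjusted p below 0.05 (3.69% of all genes were), 1 of 12 after median-of-ratios scaling (11.3%) and 1 of 12 without wild-type replicate 2 (7.92%). The median log2 fold change was 1.37, and 0.34 without wild-type replicate 2. Tnnc2 averaged 552 ± 309.8 TPM in R1ko and 351 ± 426 TPM in wild type, Tnnt3 361 ± 206 TPM in R1ko and 252 ± 308 TPM in wild type and Tnni2 351 ± 187 TPM in R1ko and 228 ± 273 TPM in wild type (SD, n = 3 each). The 8 adipocyte markers summed to 196 to 266 TPM in R1ko and 59.6 to 162 TPM in wild type, were lowest in wild-type replicate 2 for all 8, and had a median log2 fold change of 1.05. Of these, 7 of 8 had an unadjusted p below 0.05 (3.69% of all genes did), and 7 of 8 after median-of-ratios scaling (11.3%). In R1ko, 6 of 8 were higher without overlap (3.17% of all genes were), and 1 of 8 was called higher (0.0912%). Without wild-type replicate 2 the median was 0.71, and 5 of 8 adipocyte markers had an unadjusted p below 0.05 (7.92% of all genes did). Among them Cfd, adipsin, passed with 70.01, 82.3 and 95.9 TPM in the R1ko libraries, against 46.9, 13.8 and 33.7 TPM in the wild-type libraries (limma log2 fold change 1.53 ± 0.28, adjusted p = 0.00817, 0.286 after median-of-ratios scaling and 0.139 without wild-type replicate 2).

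Hair follicle genes were ordered differently among the libraries. The 12 markers summed to 19.9, 11.7 and 22.2 TPM in R1ko, against 143.5, 19.1 and 91.5 TPM in wild type, and wild-type replicate 1 was highest for all 12. All 10 tested had a negative log2 fold change, and all 10 had an unadjusted p below 0.05 (3.69% of all genes did). As lower in R1ko, 3 passed (0.175% of all genes did). The median log2 fold change was −1.68, −1.70 after median-of-ratios scaling and −2.43 without wild-type replicate 2. Krt25 had 2.703, 1.498 and 2.84 TPM in the R1ko libraries, against 20.9, 2.86 and 12.1 TPM in the wild-type libraries (limma log2 fold change −1.801 ± 0.40, adjusted p = 0.0377), Krt71 3.704, 1.46 and 4.78 TPM in the R1ko libraries, against 29.9, 4.46 and 18.3 TPM in the wild-type libraries (log2 fold change −2.01 ± 0.41, adjusted p = 0.0192), and Tchh 2.503, 1.01 and 2.47 TPM in the R1ko libraries, against 15.8, 2.52 and 9.81 TPM in the wild-type libraries (log2 fold change −1.75 ± 0.39, adjusted p = 0.0441). Without wild-type replicate 2 their log2 fold changes were −2.56 for Krt25, −2.76 for Krt71 and −2.45 for Tchh. There again 3 of 10 passed in limma as lower in R1ko (0.112% of all genes did). These were Krt25 (limma adjusted p = 0.0335), Krt31 (0.0135) and Krt33b (0.0229), while the adjusted p was 0.0873 for Krt71 and 0.0808 for Tchh. Krt25, Krt71 and Tchh had log2 fold changes of −1.82, −2.03 and −1.77 after median-of-ratios scaling, and none of the 10 passed (for these 3, limma adjusted p from 0.343 to 0.351). After this scaling 8 of 10 had an unadjusted p below 0.05 (11.3% of all genes did). In wild-type replicate 1 the median hair follicle gene was at 278% of its mean over the 6 libraries, and the median squamous gene at 124%. In wild-type replicate 3 these were 171% and 96.2%. In the 3 R1ko libraries the hair follicle genes were low (37.5%, 19.7% and 44.6%) while the squamous genes were not (122.5%, 90.5% and 113.8%). Of the 6 sebaceous gland markers, 5 were tested and none passed (0 at an unadjusted p below 0.05, median 0.18, and −0.30 without wild-type replicate 2, with 2 at an unadjusted p below 0.05). They summed to 34.04 to 41.5 TPM in R1ko and 15.1 to 50.8 TPM in wild type, with Scd3 at 12.8 ± 1.69 TPM in R1ko and 14.4 ± 7.998 TPM in wild type, Elovl3 at 13.3 ± 0.715 TPM in R1ko and 12.7 ± 6.55 TPM in wild type and Awat1 at 9.32 ± 0.891 TPM in R1ko and 8.28 ± 4.28 TPM in wild type (SD, n = 3 each).

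Melanocyte markers were near 0: of 5, Pmel was tested and did not pass (unadjusted p = 0.894), at 1.602 ± 0.285 TPM in R1ko and 1.54 ± 0.1503 TPM in wild type, while Dct and Tyr were below 0.4 TPM in every library and Mlana was listed at 0 in 4 of 6. Of 5 urothelium markers 2 were tested and none passed (1 at an unadjusted p below 0.05). Upk1a averaged 11.98 ± 1.37 TPM in R1ko and 10.9 ± 1.96 TPM in wild type, Upk3b 1.67 ± 0.318 TPM in R1ko and 0.5704 ± 0.934 TPM in wild type and Upk1b 0.868 ± 0.179 TPM in R1ko and 0.575 ± 0.372 TPM in wild type (SD, n = 3 each), and the defining marker Upk3a was listed at 0 in 5 of 6 libraries. The part that any of these tissues has in the values of the squamous genes was not tested.

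**Figure D4:**
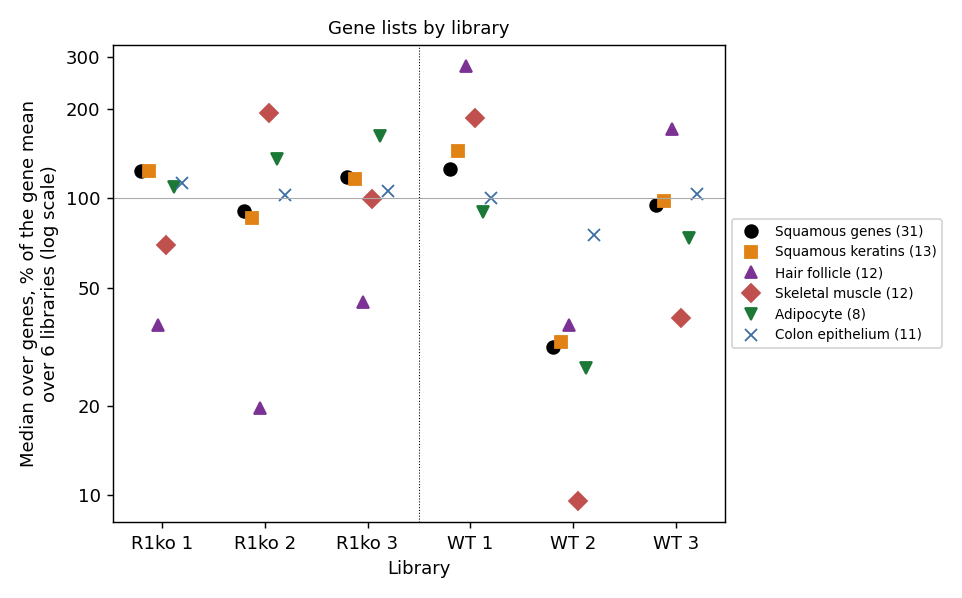
Level of 6 gene lists in each library, as the median over the genes of the list of TPM as a percentage of the mean of the gene over the 6 libraries (log scale). The squamous list is shown without the 5 genes also made by simple epithelium. In wild-type replicate 2, squamous genes are at 31.5% of the gene mean, squamous keratins at 32.8%, colon epithelium at 75.3% and skeletal muscle at 9.59%, and hair follicle genes are low in all R1ko libraries as well.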

How the data were processed

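RNA from 6 colons was analysed, 3 R1ko and 3 wild type, grouped by the labelled genotype. The authors deposited 1 table of TPM per transcript. Per the submitters' processing notes, kallisto 0.43.1 and sleuth were used with build mm10; the sources used here do not give the transcript set. Of 132639 lines, 1433 repeats with identical values, which raise the column sums above the TPM total, were dropped, and TPM was summed per gene (30330 genes). The 14248 genes averaging 1 TPM or more were tested on log2(TPM + 0.5) with limma 3.58.1 (R 4.3.3; empirical Bayes with a variance trend, Benjamini-Hochberg adjusted p below 0.05). The same test was run on 31056 transcripts. The fit was tested on simulated data with known changes and with noise drawn separately for each gene and library. The simulation therefore did not cover a library that differs in many genes together, as wild-type replicate 2 does. The depth is unknown, which precludes counting intervals. The limma p-values and SE rest on a spread between these mice that is drawn toward that of genes of similar level. For a gene whose libraries differ widely they can be too small. Tnnc2, for example, had an unadjusted limma p of 0.0113 and an exact permutation p of 0.5.

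The members and lists were chosen with earlier results of these data known. Every member is named, and of each other list the genes past the threshold or, with none, the 3 with the highest mean TPM, except some that are not reported here. Positions are from GENCODE M21 and promoters from RefSeq (GRCm38.p6). Alternatives were another pseudocount, filter or scaling, no trend, a replicate block, and leaving out each library.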

Additional observations from a re-analysis of the deposited data

How the results depend on the processing

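With all libraries, 38 genes passed the threshold. The count was 24 with a pseudocount of 0.1, 2 without a filter on low values, 142 with a filter at 5 TPM, 6 after median-of-ratios scaling, 4 after rescaling TPM over transcripts with a gene, and from 20 to 298 when 1 library was left out. Of the squamous genes, 0 passed with all libraries (10 of 35 at an unadjusted p below 0.05), 5 with the filter at 5 TPM (Lor, Cnfn, Krtdap, Asprv1 and Crct1), and from 0 to 13 when 1 library was left out. No member transcript passed in any setting run. The cause of these differences was not tested.

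The libraries themselves correlated at 0.971 to 0.987. After the mean of each gene in its group was subtracted, same-numbered libraries correlated at 0.052, 0.132 and 0.183. The numbers were therefore not taken as pairs. On this measure R1ko replicate 1 correlated best with wild-type replicate 3 (0.098). R1ko replicates 2 and 3 each correlated best with the wild-type library of the same number. With a replicate block 71 genes passed (0.498% of all; 13 higher and 58 lower), and 0 squamous genes. Rescaling moved the median log2 fold change of all genes to −0.10 and that of the list to 0.39. Of 482 recomputed log2 fold changes, 423 kept direction and side of the threshold and 30 reversed, 19 of these without wild-type replicate 2. Some of these settings cannot change direction. Without a trend, with a replicate block or with another filter the log2 fold change stays the same, and only the p-values move. After median-of-ratios scaling Dsp was at −0.021 and Gjb2 at −0.025, and after rescaling Dsc3 was at −0.018, Dsp at −0.12 and Gjb2 at −0.117. Leaving out 1 library, the log2 fold change ranged from −0.302 to 0.697 for Trp63, −0.043 to 0.382 for Sfn, −0.047 to 0.307 for Perp, −0.111 to 0.097 for Anxa8, −0.235 to 0.747 for Dsg1a, −0.274 to 0.526 for Dsg3, −0.515 to 0.502 for Dsc3, −0.179 to 0.421 for Pkp1, −0.147 to 0.107 for Dsp, −0.057 to 0.616 for Cdsn, −0.128 to 0.922 for Ivl, −0.031 to 0.325 for Evpl, −0.124 to 0.535 for Ppl, −0.17 to 1.262 for Flg2, −0.008 to 1.104 for Sbsn, −0.009 to 0.868 for Spink5, −0.323 to 0.629 for Elovl4, −0.202 to 0.174 for Gjb2, −0.227 to 0.719 for Ly6g6c and −0.012 to 0.931 for Calml3.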

Other observations

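Among the genes of the other squamous lists, 3 stood out and were chosen after their values were seen. Klk14, a kallikrein that sheds cornified cells, had 18.6, 12.6 and 23.4 TPM in the R1ko libraries, against 13.9, 4.76 and 8.74 TPM in the wild-type libraries. R1ko replicate 2 lay below wild-type replicate 1, so the groups overlap (limma log2 fold change 1.03 ± 0.28, adjusted p = 0.181). Prr9, a proline-rich gene of the epidermal differentiation complex, had 1.503, 0.437 and 1.07 TPM in the R1ko libraries, against 6.03, 1.45 and 5.43 TPM in the wild-type libraries. It was low in all R1ko libraries and in wild-type replicate 2, as the hair follicle genes were (limma log2 fold change −1.56 ± 0.37, adjusted p = 0.0743). Casp14, the caspase of cornifying keratinocytes, had 32.7, 27.7 and 25.8 TPM in the R1ko libraries, against 39.2, 30.8 and 34.8 TPM in the wild-type libraries, and its level in wild-type replicate 2 was 96.1% of the other libraries.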
